A study of Mus musculus with 3 samples.

Results

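The Notch receptors, their ligands and the Hey target genes were examined in sorted endothelium of mouse glomeruli, the capillary knots through which an adult kidney filters blood. The members are the 10 genes Notch1, Notch2, Notch3, Notch4, Dll1, Dll4, Jag1, Jag2, Hey1 and Heyl, out of 19938 genes with a probe set of their own on the array. They were chosen by name, as probe sets that the array annotation gives to that gene alone, and each of the 10 had 1 such probe set. The cells came from adult Tie2-GFP mice, carrying the transgene Tg(TIE2GFP)287Sato on a mixed, mainly CD-1 background and of unknown sex, in which green fluorescent protein is driven by the Tie2 (Tek) promoter, active in endothelium generally and not in glomeruli alone. Glomeruli were sieved out of collagenase-treated cortex and dissociated with trypsin, and fluorescent cells were sorted. There were 3 Affymetrix Mouse Gene ST arrays, replicates 1, 3 and 5, with the RNA of 1 adult kidney on each, and they form 1 group. The study describes its samples as biologically independent, and the labels do not say whether the kidneys came from different mice. There is no second condition to compare, and the questions are whether each Notch gene was measured above a detection level and how far the arrays differed.

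Notch signalling passes between touching cells. A ligand of the Delta or Jagged type on 1 cell binds a Notch receptor on its neighbour, the receptor is cut by an ADAM protease and then by gamma-secretase, and the freed intracellular part enters the nucleus, joins the DNA-binding protein RBPJ and switches on genes such as those of the Hey and Hes repressors. In blood vessels the pathway is best known for arterial identity and for holding back sprouting, where DLL4 on the leading cell activates NOTCH1 on the next.

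Signals are given as log2 values, with means ± SD over the 3 arrays (n = 3). Each mean was compared with 2 levels by limma. The first was 100, the number of the filter that the study set on raw values, which is 6.64 on the log2 scale. The study required that number in 3 samples, whereas here the mean was tested against it. The second, called the olfactory receptor level, was the 95th percentile of 1035 probe sets for olfactory receptors, genes that kidney endothelium should lack, and lay at 4.85 (28.9 before the logarithm). Probe sets differ in how strongly they bind their transcript, so genes were not ranked against each other by level. Both levels are common to all probe sets, so each call against them carries that limit too. Less RNA per cell and fewer cells that express a gene cannot be told apart in such sorted pools. Markers of endothelium were well measured, with 10 of 10 called above 100, among them Tek at 10.65 ± 0.43. None of 5 podocyte, 11 mesangial and smooth muscle, 4 parietal epithelial, 9 leukocyte and 8 tubule markers was called above it, also at an unadjusted p under 0.05. Against the olfactory receptor level, some were called above: 2 of the podocyte, 1 of the mesangial and smooth muscle and 1 of the parietal epithelial markers. So were 3 of the leukocyte and 2 of the tubule markers, against 44.4% of all probe sets. A call above that level was thus also given to markers of other cell types. The mean of the 11 mesangial and smooth muscle markers was between 4.66 and 4.82 on the 3 arrays and that of the 9 leukocyte markers between 4.52 and 4.64.

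None of the 10 Notch genes was called above the level of 100. By limma, 5 were called below it (Notch2, Notch3, Dll1, Jag2 and Heyl) and 5 neither (Notch1, Notch4, Dll4, Jag1 and Hey1), while over all 21789 probe sets 15.8% were called above and 72.5% below. The count above was also 0 at an unadjusted p under 0.05. It was 1, Notch1, with the variance prior that limma takes from all probe sets. Against the olfactory receptor level 7 of the 10 were called above, against 44.4% of all probe sets, and 0 below, against 36.2%. These 7 were the 5 genes called neither against 100 together with Notch3 and Jag2. A call of neither does not by itself place a gene near 100: the intervals of Jag1 (5.16 to 8.97) and Hey1 (5.17 to 7.44) were wide. Dll1, Notch2 and Heyl were called neither above nor below the olfactory receptor level. The median level of the 10 genes was 5.89, and that over all probe sets 5.04. No test of these shares was made.

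**Figure D1:**
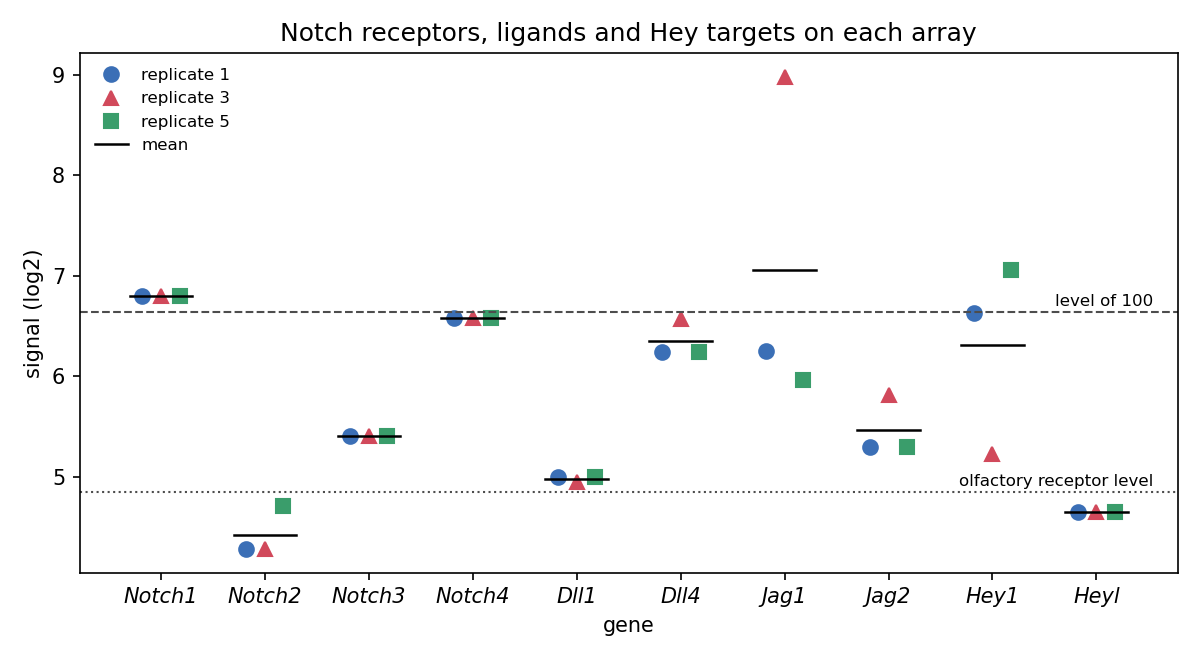
Signal (log2) of the 10 genes on each of the 3 arrays (symbols), with the mean over the arrays (bar), the level of 100 (dashed) and the olfactory receptor level (dotted). Notch1, Notch3, Notch4 and Heyl had the same value on all arrays, whereas Jag1 lay at 8.98 on replicate 3 against 6.25 and 5.96 on the others.

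Among the receptors, Notch1 and Notch4 lay near 100, and Notch2 and Notch3 were below it. Notch1, the receptor that DLL4 activates in sprouting vessels, was at 6.80 on each array (111.6 before the logarithm). Its mean was 0.16 above the level (SE 0.12, adjusted p = 0.266), with a 95% interval of the mean from 6.48 to 7.13. As the arrays gave equal values, this SE and interval come from the variance prior alone, which was estimated from other probe sets. With the prior from all probe sets, whose estimate includes variances of 0, the same difference gave an adjusted p of 4.46e-30, and the call rests on that setting.

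Notch4, the receptor that is mostly confined to endothelium, was at 6.58 on each array, or 95.9 before the logarithm. It differed from 100 by -0.06 (adjusted p = 0.649), with an interval from 6.26 to 6.91. With the prior from all probe sets it was called below, with an adjusted p of 2.83e-29. Both Notch1 and Notch4 were called above the olfactory receptor level, by 1.95 (adjusted p = 0.000386) and 1.73 (adjusted p = 0.000482). A further 6 probe sets that the annotation gives to Notch4 and Sympk together were left out, with values between 3.81 and 4.67.

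Notch3, the receptor of pericytes and smooth muscle, was at 5.40 on each array and was called below 100 (difference -1.24, adjusted p = 0.000692). It was still 0.55 above the olfactory receptor level (adjusted p = 0.0137). Of the 11 markers of mesangial and smooth muscle cells, all were called below 100 and 1, Meis1, was called above the olfactory receptor level. Pdgfrb at 4.22 ± 0.25 was called below that level, and Acta2 at 5.21 and Myh11 at 4.82 neither above nor below. Whether such cells contributed to the Notch3 signal was not tested.

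Notch2 was at 4.28 on replicates 1 and 3 and at 4.71 on replicate 5, all under both levels. Its mean of 4.42 ± 0.25 was called below 100 (difference -2.22, adjusted p = 0.000261) and not distinguished from the olfactory receptor level (difference -0.43, adjusted p = 0.0616). Without replicate 5 the latter difference was -0.58 and Notch2 was called below (adjusted p = 0.0234). As replicates 1 and 3 gave equal values, the spread behind that call comes from the variance prior alone.

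**Figure D2:**
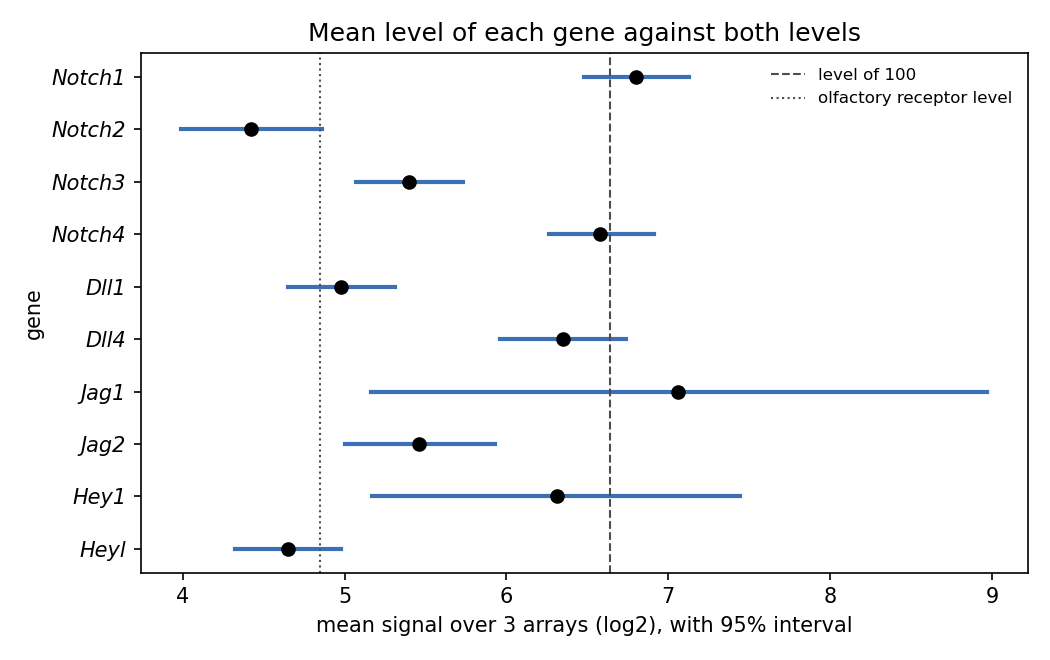
Mean signal of each gene over the 3 arrays (points, log2) with its 95% interval from limma (bars), the level of 100 (dashed line) and the olfactory receptor level (dotted line). The intervals of Notch1, Notch4, Dll4, Jag1 and Hey1 hold the level of 100, and those of Notch2, Dll1 and Heyl hold the olfactory receptor level. For Notch1, Notch3, Notch4 and Heyl, identical on all arrays, the width of the interval comes from the variance prior alone.

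None of the 4 ligand genes was called above 100, also at an unadjusted p under 0.05, against 15.8% of all probe sets called above. The arrays differed more for Jag1 than for any other of the 10 genes. Jag1, the Jagged ligand of arterial endothelium and smooth muscle, was at 6.25, 8.98 and 5.96 on replicates 1, 3 and 5 (75.9, 504.7 and 62.4 before the logarithm). Replicate 3 alone was above 100, and it exceeded the mean of the other two by 2.87 on the log2 scale, a ratio of 7.33. The highest and lowest array were 8.09-fold apart, and 77 of 21789 probe sets (0.353%) had a wider range. The mean of 7.06 ± 1.67 was not distinguished from 100 (difference 0.42, adjusted p = 0.59), with an interval from 5.16 to 8.97. Without replicate 3 the difference turned to -0.54 and Jag1 was called below 100 (adjusted p = 0.0217). Its call above the olfactory receptor level (2.21, adjusted p = 0.0408) was lost without replicate 1 (2.62, adjusted p = 0.0667), with the prior from all probe sets (adjusted p = 0.149), with all probe sets of the array tested (adjusted p = 0.0554), against the 99th olfactory percentile (adjusted p = 0.104) and without moderation (adjusted p = 0.171). It held without replicate 3 (1.24, adjusted p = 0.00231).

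Dll4, the Delta ligand of endothelial tip cells and arteries, was at 6.24 on replicates 1 and 5 and at 6.57 on replicate 3. All arrays lay under 100 and above the olfactory receptor level. The mean of 6.35 ± 0.19 differed from 100 by -0.30 (adjusted p = 0.113) and from the olfactory receptor level by 1.49 (adjusted p = 0.0011). Without replicate 3 it was called below 100 (-0.41, adjusted p = 0.0282). As replicates 1 and 5 gave equal values, the spread behind that call comes from the variance prior alone.

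Jag2 was at 5.29 on replicates 1 and 5 and at 5.81 on replicate 3. Its mean of 5.46 ± 0.30 was called below 100 (difference -1.18, adjusted p = 0.00285) and above the olfactory receptor level by 0.61 (adjusted p = 0.0286). The latter call was lost with the prior from all probe sets (adjusted p = 0.0704). Dll1 was at 5.00, 4.95 and 5.00 on replicates 1, 3 and 5, below 100 by limma (difference -1.66, adjusted p = 0.000273) and 0.13 from the olfactory receptor level (adjusted p = 0.372). With the prior from all probe sets Dll1 was called above the latter (adjusted p = 0.0188), as it was against the 90th percentile (0.50, adjusted p = 0.0186). The remaining Delta gene, Dll3, which is no member, was at 4.62 on each array. Replicate 3 exceeded the mean of the others by 0.33 for Dll4 and by 0.51 for Jag2. Over all probe sets, 19.5% had a wider range than Dll4 and 13.6% a wider one than Jag2. Dll4, Jag1 and Jag2 thus had their highest value on the same array, replicate 3, while Dll1 had its lowest there.

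The start regions of these 3 ligand genes are shown because their signals were highest on the same array. They are the windows of 250 bases before to 50 after the gene start in RefSeq, build GRCm38.p6, in which 8 of the 10 genes have an entry and Hey1 and Heyl were not matched. Capitals mark GGAA, the core that ETS factors of endothelium bind, on either strand. Jag1 lies at chr2:137116471-137116770 on the minus strand, Dll4 at chr2:119325534-119325833 on the plus strand and Jag2 at chr12:112929446-112929745 on the minus strand.
Jag1: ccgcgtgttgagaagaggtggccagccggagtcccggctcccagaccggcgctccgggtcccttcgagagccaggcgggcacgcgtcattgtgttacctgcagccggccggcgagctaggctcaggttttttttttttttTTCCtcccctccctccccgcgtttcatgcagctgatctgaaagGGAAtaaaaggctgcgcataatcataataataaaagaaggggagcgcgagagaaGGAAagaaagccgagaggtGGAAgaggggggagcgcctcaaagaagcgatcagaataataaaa
Dll4: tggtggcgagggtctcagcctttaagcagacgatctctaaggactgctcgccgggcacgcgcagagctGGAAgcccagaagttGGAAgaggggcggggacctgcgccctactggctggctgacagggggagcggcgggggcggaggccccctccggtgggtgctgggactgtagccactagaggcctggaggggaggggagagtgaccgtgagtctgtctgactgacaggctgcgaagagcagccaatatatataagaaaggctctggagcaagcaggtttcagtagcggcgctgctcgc
Jag2: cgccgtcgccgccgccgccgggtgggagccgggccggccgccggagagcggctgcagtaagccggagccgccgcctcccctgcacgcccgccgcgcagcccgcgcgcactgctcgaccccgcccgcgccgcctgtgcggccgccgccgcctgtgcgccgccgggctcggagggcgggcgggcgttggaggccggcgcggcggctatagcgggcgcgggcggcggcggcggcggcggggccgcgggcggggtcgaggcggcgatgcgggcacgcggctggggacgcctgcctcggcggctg

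The core was found 4 times in the window of Jag1, 2 times in that of Dll4 and 0 times in that of Jag2, of which 86% are G or C. At least 1 copy stands in 96% of 32851 windows of that length, with a median of 3. Notch4 had 7 copies, Notch1 4, Notch2 3 and Notch3 0, and each of the 2 windows of Dll1 had 1. The letters TGGGAA, the core that RBPJ binds, which contain GGAA, were searched on both strands too. They were in none of the 9 windows of the 8 genes, against 25.6% of all windows. These are matches of letters in a short window, and no binding was measured.

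Hey1 and Heyl encode repressors that Notch signalling switches on. Neither was called above 100, also at an unadjusted p under 0.05, against 15.8% of all probe sets called above. Hey1 was at 6.63, 5.22 and 7.06 on replicates 1, 3 and 5 (99.4, 37.3 and 133.8 before the logarithm). Replicate 3 was the lowest, at 0.324 times the mean of the others, and replicate 5 alone was above 100. The range was 3.58-fold, and 366 probe sets (1.68%) had a wider one. Its mean of 6.31 ± 0.96 was not distinguished from 100 (difference -0.34, adjusted p = 0.473), and without replicate 3 the difference was 0.21 (adjusted p = 0.281). Hey1 was called above the olfactory receptor level (1.45, adjusted p = 0.0304), but not without replicate 1 (1.29, adjusted p = 0.109) or without replicate 5 (1.07, adjusted p = 0.0968), nor with the prior from all probe sets (adjusted p = 0.121), against the 99th olfactory percentile (adjusted p = 0.151) or without moderation (adjusted p = 0.142). Heyl was at 4.65 on each array, called below 100 (difference -1.99, adjusted p = 0.000158) and not distinguished from the olfactory receptor level (difference -0.21, adjusted p = 0.176). With the prior from all probe sets Heyl was called below the latter (adjusted p = 2.98e-31).

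The list of Hey and Hes factors holds 10 further genes, among them Helt, Bhlhe40 and Bhlhe41, which are not named Hey or Hes. None of the 10 was called above 100 by limma, also at an unadjusted p under 0.05, against 15.8% of all probe sets called above. Of the 10, 8 were called below, Helt, Bhlhe40 and Bhlhe41 among them, near the 72.5% of all probe sets. Hes1, a Hes repressor that answers to Notch in many tissues, was called neither, at 7.05 on replicates 1 and 5 and 6.30 on replicate 3 (mean 6.80 ± 0.43, adjusted p = 0.51). Like Hey1 it had its lowest value on replicate 3. Hes6 was called neither at 6.24 ± 0.20 (adjusted p = 0.0548). Hey2, the partner of Hey1 in arterial development, was at 4.33 on each array, below both levels (adjusted p = 0.000109 and 0.0158). Nrarp, a Notch target whose product restrains the pathway, was at 4.55, 5.83 and 4.79 on replicates 1, 3 and 5, highest on replicate 3. Its mean of 5.05 ± 0.68 was called below 100 (adjusted p = 0.00754).

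The rest of the pathway was taken from lists of its parts. Of 72 listed genes that are no members, 69 were measured, and 16 were called above 100, 11 neither and 42 below, against the 15.8% and 72.5% of all probe sets. Against the olfactory receptor level 54 of the 69 were above and 4 below, against 44.4% and 36.2% of all probe sets. Their median level was 5.83.

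Proteolysis had 4 of 9 measured genes above 100 and 4 below, against 15.8% and 72.5% of all probe sets. Adam10, the protease that cuts the bound receptor, was at 8.91, 8.18 and 8.71 on replicates 1, 3 and 5 (adjusted p = 0.000782). Of the gamma-secretase subunit genes 3 were above, with Ncstn at 7.31 on each array (adjusted p = 0.00604), Aph1a at 7.10 ± 0.14 (adjusted p = 0.029) and Psenen at 9.57 on each array (adjusted p = 7.36e-05). Psen2, which encodes a catalytic subunit, was below at 6.21 ± 0.09 (adjusted p = 0.0289). Adam17, the other ADAM protease of Notch, was at 8.61, 6.22 and 8.12, lowest on replicate 3, and was called neither (mean 7.65 ± 1.26, adjusted p = 0.138).

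Of 10 genes for nuclear activators 3 were above 100 and 5 below, against 15.8% and 72.5% of all probe sets. Those above were Snw1 at 8.89 on each array, the acetyltransferase gene Ep300 at 8.20 ± 0.11 and its relative Crebbp at 9.15 on each array. Rbpj, which encodes the DNA-binding partner of Notch, was at 6.89, 6.63 and 6.80 and was called neither (adjusted p = 0.383), while its second probe set lay at 3.84 on each array, so the probe sets of Rbpj disagree. Of the mastermind genes, whose products join the complex, Maml2 was at 6.85 on each array and 6.21 ± 0.31 on a second probe set, neither of them called, and Maml1 at 5.37 ± 0.02 and Maml3 at 5.83 were called below. The acetyltransferase genes Kat2a at 6.24 and Kat2b at 5.99 were below as well. Among 10 measured co-repressor genes 3 were above, 2 neither and 5 below, against the same shares of all probe sets. Above were Hdac1 at 8.92 ± 0.18, Hdac2 at 9.32 ± 0.18 and Cir1 at 8.48 ± 0.21. Those below were Ctbp1 and the Groucho-type genes Tle1, Tle2, Tle3 and Tle4, all of which were above the olfactory receptor level.

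Of 8 glycosyltransferase genes, whose products modify the receptor, 1 was called above 100, 2 neither and 5 below. Over all probe sets 15.8% were called above and 72.5% below. Eogt was above at 9.86 ± 0.04 (adjusted p = 6.9e-05). The fringe genes Lfng at 5.39 ± 0.13, Mfng at 5.83 and Rfng at 5.49 ± 0.18 were called below. All 8 genes of the list were called above the olfactory receptor level, against 44.4% of all probe sets. Of 6 genes for ubiquitination and endocytosis of the ligand none was above 100, also at an unadjusted p under 0.05. Mib1, the ligase that activates Delta and Jagged, was at 6.84 on each array (adjusted p = 0.192).

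Of 11 genes for negative regulators 4 were above 100 and 7 below, against 15.8% and 72.5% of all probe sets. Numb, an adaptor that lowers the receptor at the membrane, was at 10.17, 9.26 and 10.36 on replicates 1, 3 and 5 (adjusted p = 0.000407). The ubiquitin ligase genes Itch at 7.88 on each array, Fbxw7 at 8.85 ± 0.36 and Nedd4 at 9.34 ± 0.04 were also above, though a second probe set of Fbxw7 was called neither at 6.59. The Deltex genes Dtx1, Dtx2, Dtx3, Dtx3l and Dtx4 were all called below, with means between 4.97 and 5.97. Of the ligand-like genes, Egfl7, an endothelial secreted protein that can bind Notch, was above at 9.41 ± 0.20 (adjusted p = 0.000111), and Dlk1, Dlk2 and Dner were below.

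**Figure D3:**
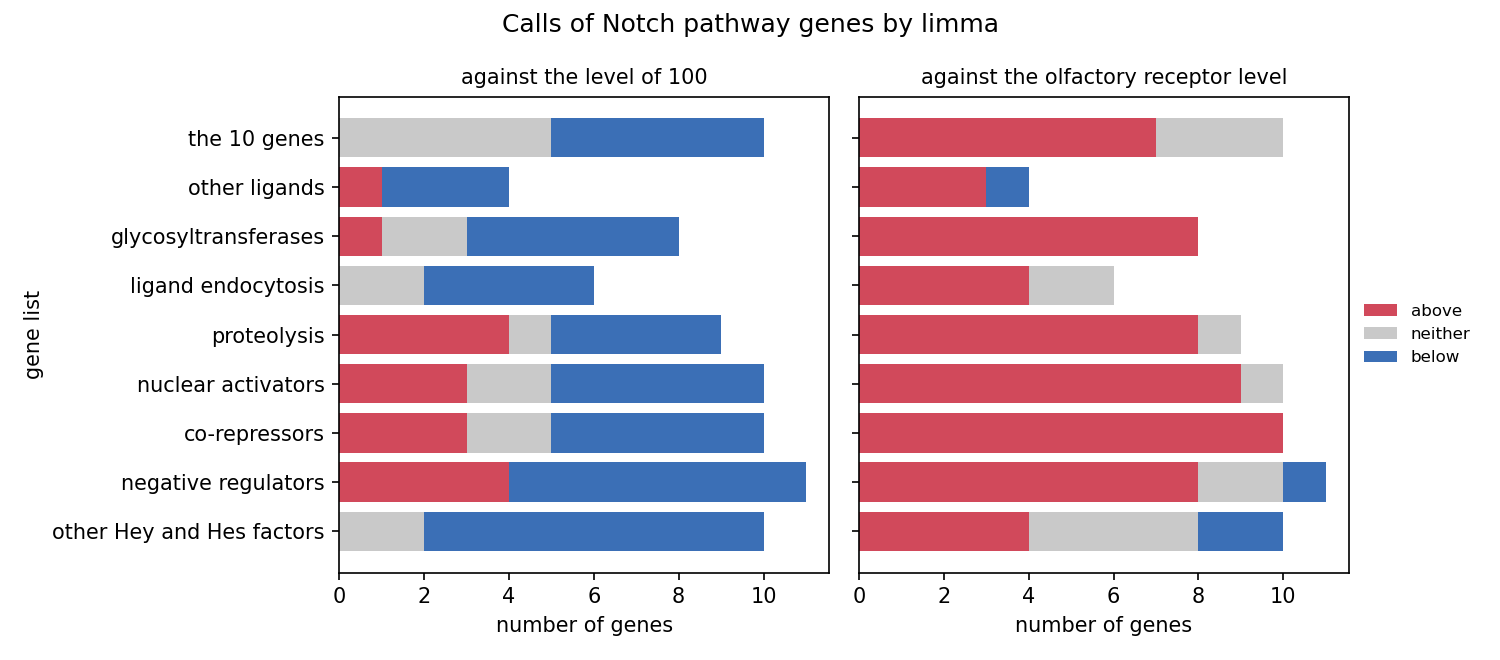
Number of genes of each list called above, neither or below by limma, against the level of 100 (left) and the olfactory receptor level (right). None of the 10 genes was called above 100 and 7 were called above the olfactory receptor level, and of the 9 proteolysis genes 4 and 8 were. Over all probe sets these shares were 15.8% and 44.4%.

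Between the arrays, 4 of the 10 genes had identical values on all 3 (Notch1, Notch3, Notch4 and Heyl), against 54.1% of all probe sets, and 2, Jag1 and Hey1, differed by over 2-fold. Without replicate 3 none differed by over 2-fold. Replicate 3 held the highest value of 3 of the 10 and the lowest of 2, where over all probe sets it held the highest of 14.2% and the lowest of 12.6%. Leaving out those identical on all arrays, which have no highest array, these were 3 and 2 of 6 genes against 31% and 27.4% of 9998 probe sets. Each array is a sample of its own, so these differences have no test.

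Genes of arterial endothelium also differed between the arrays, some with their highest value on replicate 3 as for Jag1, Dll4 and Jag2. Of the Notch targets, Hey1 and Hes1 had their lowest value there and Nrarp its highest. The arterial list was chosen with earlier results of these data known. Of the 12 listed 5 were called above 100, 5 neither and 2 below, against 15.8% above and 72.5% below over all probe sets. Their mean was 7.22, 8.23 and 7.02 on replicates 1, 3 and 5. Of the 11 that were not identical on all arrays, 7 were highest on replicate 3 (63.6%), against 31% of such probe sets, and 3 lowest. Among those picked for their difference on this array, Mgp, which encodes an inhibitor of vessel calcification, was at 5.37, 10.18 and 4.80, the elastic fibre gene Fbln5 at 6.21, 8.77 and 5.14, and the connexin gene Gja5 at 7.37, 8.70 and 5.82. Efnb2 and Nrp1, which are used as arterial markers too, did not share this order: Efnb2 was at 10.73, 10.82 and 11.35, and Nrp1 at 11.43, 10.38 and 11.81. The mean of the 10 endothelial markers was lower on replicate 3, at 9.64, against 10.04 and 10.32, and 6 of the 10 were lowest there, among them Kdr at 9.53 against 10.83 and 11.18. Ehd3, a gene of glomerular endothelium, was at 9.51 against 10.60 and 11.00. The means of the 11 mesangial and smooth muscle markers were 4.82, 4.70 and 4.66. Whether the mix of cells on replicate 3 contributed to its values of Jag1 and Hey1 was not tested.

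**Figure D4:**
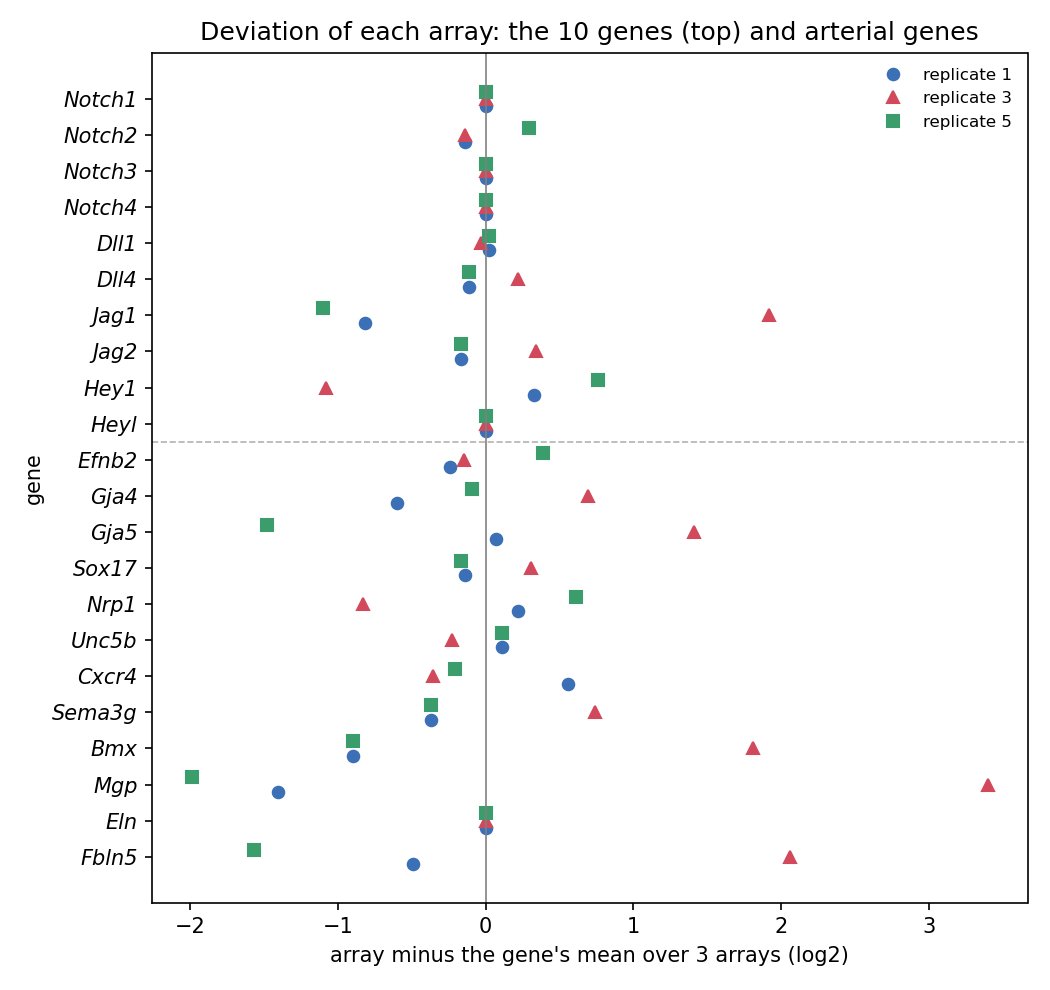
Difference of each array from the mean of the gene over the 3 arrays (log2), for the 10 genes (above the dashed line) and the 12 arterial genes (below it). Replicate 3 lay 1.92 above the mean of Jag1 and at -1.08 from that of Hey1, and had the highest value of 7 of the 12 arterial genes.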

How the data were processed

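RNA of sorted cells was amplified (1 round) for Affymetrix Mouse Gene ST arrays. The deposited values are log2 signals per probe set, from 1.39 to 14.4, with medians between 4.79 and 4.85. Affymetrix Expression Console is named per the labels, with no version, and the study names RMA for its own analysis. The set of arrays that entered the normalization is not stated by the labels or methods. RMA's median polish can return equal values on 3 arrays, so an SD of 0 is not a measured error of 0. Of 21789 probe sets that name 1 gene, 54.1% were identical on all arrays (within 1e-09), 25.7% on 2, and 20.2% had 3 distinct values. The origin of these ties was not tested.

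All arrays form 1 group. limma 3.58.1 (R 4.3.3) was fitted with an intercept, each mean was compared with a level, two-sided, and p-values were Benjamini-Hochberg adjusted over 21789 probe sets (threshold 0.05). The variance prior came from the 4406 probe sets with 3 distinct values (SD 0.288, 2.03 degrees of freedom), and limma's own prior, the level, the array scaling, the tested set and left-out arrays were alternatives. The procedure was tested on simulated data. P-values rest on the spread among the 3 arrays and on the variance prior, and the number of arrays limits the precision. For probe sets identical on all arrays of a fit, the SE, interval and p-value take their spread from the prior alone. This holds also where an array was left out and the remaining arrays were equal. A further 1621 probe sets naming several genes and 12147 without a name were left out. Identifiers of 21698 probe sets, with all 10 members, matched RefSeq (GRCm38.p6). Where several probe sets name a gene, that with the highest mean was taken. Coordinates are those of the RefSeq windows, since the array annotation names no build.

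The members, lists and levels were chosen with earlier results of these data known. The genes named are the 10 members, genes of the pathway lists by their call and, from the marker lists, the range of the mean. The markers Pdgfrb, Acta2, Myh11, Meis1, Tek, Kdr and Ehd3 and the arterial genes Mgp, Fbln5, Gja5, Efnb2 and Nrp1 were chosen after their values were seen.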

Additional observations from a re-analysis of the deposited data

How the results depend on the processing

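Of 164 alternative values for the members against the 2 levels, 129 kept direction and call, 11 lost a call, 13 gained one and 11 changed sign. Those that changed sign against 100 were Jag1 (-0.54) and Hey1 (0.21), both without replicate 3. Against a level of 200 they were Notch1 (-0.84) and Jag1 (-0.58), and against 64 Notch4 (0.58), Dll4 (0.35) and Hey1 (0.31). Against the 99th olfactory percentile they were Notch3 (-0.14), Dll1 (-0.56) and Jag2 (-0.08), and against the 90th Heyl (0.16). Leaving out 1 array at a time, the difference from 100 ranged from -0.54 to 0.97 for Jag1 and from -0.72 to 0.21 for Hey1. Members called above 100 numbered 1 with limma's own prior and 2 at a level of 64, and 9 were called below at 200. With the 99th percentile 3 members were called above and 3 below the olfactory level. With limma's own prior 1 member and 9 pathway genes were called below it, and leaving out 1 array at a time gave 0 to 1 members. Without moderation only probe sets with 3 distinct values could be tested, so fewer genes were: members gave 0 below 100 and 0 above the olfactory level, and pathway genes 8 above and 3 below 100, and 12 above and 0 below the olfactory level. At a level of 64, 26 pathway genes were above. The members that differed by over 2-fold numbered 0 to 2 when 1 array was left out. Except where the fewer genes tested set the count, the cause was not tested. No paired analysis was possible because there is 1 group.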
